A study of Rattus norvegicus with 60 samples.

Results

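RNA levels were compared in the cortex of rats that ate chow with lithium chloride (LiCl) and rats that ate vehicle chow. The comparison used 10 of the 60 arrays of the series, 5 from LiCl rats and 5 from chow vehicle rats, chosen by their labels alone. All rats were of the strain labelled SD and were treated for 21 days, and LiCl made up 0.2% of the chow. The other cortex arrays, 5 of injection vehicle and 5 of lamotrigine at 30 mg/kg, shared the estimate of the spread in the fit. The sources used here name no allele or transgene, and no age or sex. The cortex labels also carry the prefix PFC, a tissue field names mouse, and a time field names constant delivery for every sample. The organism, strain and array type give rat. Apart from the numbers carried by the sample descriptions, nothing says that the arrays of a group came from separate animals, so p-values measure the spread between these samples.

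Lithium is a mood stabilizer that is given for bipolar disorder. It inhibits glycogen synthase kinase 3, a kinase of the Wnt and insulin pathways, and it inhibits inositol monophosphatase and related phosphatases that recycle inositol and clear phosphoadenosine phosphate. In neurons these enzymes bear on phosphoinositide signalling, microtubules and gene expression that follows synaptic activity.

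Each array measured 31042 probe sets, of which 20826 carry a single gene symbol, and these stand for 14217 genes. Levels are log2 intensities, changes are LiCl minus chow vehicle on the log2 scale ± the fitted SE, and means of a group stand with ± SD over its 5 arrays. Calls required an adjusted p under 0.05 in limma. The tissue labels matched markers fixed for the regions. Slc17a7, the vesicular glutamate transporter of cortical neurons, had a mean of 11.61 with LiCl and 11.74 with chow vehicle in the cortex, and of 6.07 with chow vehicle in the striatum, while the striatal dopamine receptor gene Drd1 lay at 6.52 and 6.73 in the cortex against 12.06 in the striatum.

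On the deposited values, 4164 probe sets were called, which is 13.4% of those tested, with 1619 higher and 2545 lower in LiCl cortex. Direction went with brightness. Of the 9559 probe sets with a mean level above 4 and up to 6, 884 were higher and 88 lower, and their median change was 0.11. Of the 6860 probe sets above 8 and up to 10, 61 were higher and 1334 lower, and their median change was -0.11. The values of the LiCl arrays were also less spread out than those of the chow vehicle arrays. The interquartile range of log2 intensities within an array was 3.36, 3.44, 3.36, 3.39 and 3.29 with LiCl and 3.56, 3.57, 3.58, 3.61 and 3.56 with chow vehicle, so every LiCl array lay below every chow vehicle array. The injection vehicle arrays lay at 3.53 ± 0.02. Lamotrigine replicates 1 and 5 both lay at 3.36, within the range of the LiCl arrays, and the other lamotrigine arrays lay between 3.50 and 3.57.

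**Figure D1:**
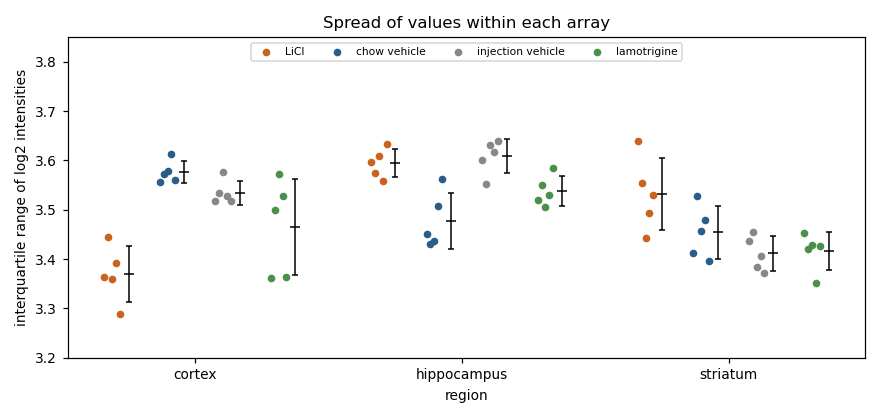
Spread of each of the 60 arrays, as the interquartile range of its log2 intensities (vertical axis), by region and treatment, with points for arrays and black bars for mean ± SD of 5 arrays. In the cortex the LiCl arrays lie below all chow vehicle arrays, while in the hippocampus and the striatum the LiCl mean is above the chow vehicle mean.

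After quantile normalization over the 20 cortex arrays, which gives every array the same distribution of values, 1361 probe sets were called (4.38%), with 713 higher and 648 lower. The relation to brightness then disappeared from the medians, which lay between -0.01 and 0.01 in every level range. When array spread was instead added to the limma model, 0 probe sets were called. At an unadjusted p under 0.05 there were 3083, compared with 9478 when it was left out. LiCl and a narrow spread coincide in these 10 arrays. Over the 20 arrays of the fit they coincide less, since lamotrigine replicates 1 and 5 were as narrow without LiCl. The fit takes the effect of spread from differences within groups and so separates drug and spread only in part. The results below therefore rest first on the 1106 probe sets called both as deposited and after quantile normalization (3.56% of those tested, 543 higher and 563 lower).

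**Figure D2:**
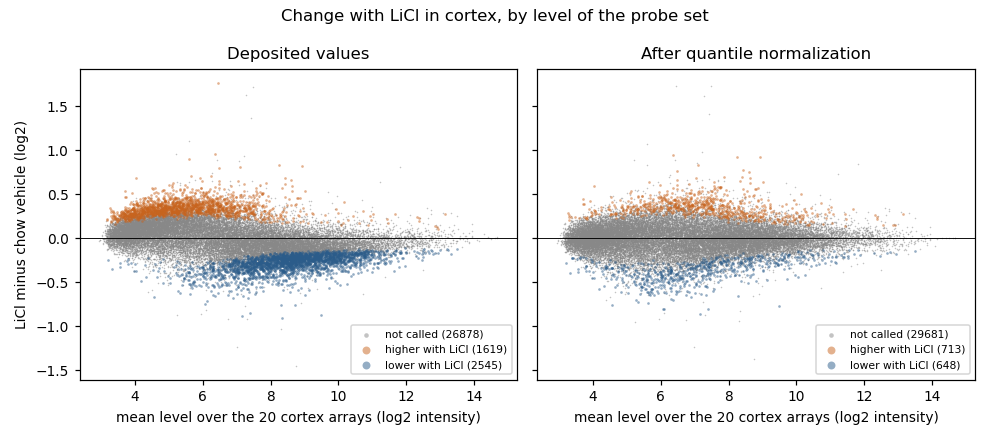
Change with LiCl in cortex (vertical axis, log2) against mean level over the 20 cortex arrays (horizontal axis, log2 intensity) for the 31042 probe sets, with called probe sets in colour. On the deposited values dim probe sets are called mostly higher and bright ones mostly lower, and after quantile normalization 713 higher and 648 lower calls lie over the same range of levels.

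The 790 probe sets that were called on both scales and also had all 5 LiCl arrays on one side of all 5 chow vehicle arrays made up 2.54% of those tested, 395 in each direction. They stood for 542 named genes. The 15 genes with the largest rises and the 15 with the largest falls after quantile normalization are described here by single probe sets, since these satisfied the rule by construction and their counts support nothing. After quantile normalization 21 of these 30 genes were shifted in the LiCl direction in lamotrigine replicates 1 and 5, against the other lamotrigine arrays. On the deposited values 22 were. The cause of this shift in arrays without LiCl was not tested.

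Among the rises, 3 genes belong to the major histocompatibility complex (MHC), whose products present peptides to T cells. RT1-CE12, a class I gene, lay at 8.71, 8.62, 8.72, 8.60 and 8.89 in the LiCl arrays and at 8.25, 7.90, 8.18, 8.08 and 8.09 in the chow vehicle arrays. The lowest LiCl array stood well above the highest chow vehicle array, and the change was 0.61 ± 0.09 (adjusted p = 0.00111) and 0.70 after quantile normalization. RT1-Ba, the alpha chain of a class II molecule, lay at 8.05, 7.81, 8.03, 8.01 and 8.19 with LiCl and at 7.56, 7.54, 7.72, 7.45 and 7.22 with chow vehicle. Its change was 0.52 ± 0.10 (adjusted p = 0.00526). Lamotrigine replicates 1 and 5 lay at 8.12 and 8.11, within the LiCl range, and the other lamotrigine arrays between 7.67 and 7.77. RT1-Ba was measured by 4 probe sets and all of them were called higher on the deposited values, with changes of 0.40, 0.55, 0.52 and 0.42, and 2 of them were called after quantile normalization. RT1-Db1, a class II beta chain, lay at 5.12, 5.24, 5.35, 5.98 and 5.36 with LiCl and between 4.52 and 4.91 with chow vehicle, with a change of 0.63 ± 0.14 (adjusted p = 0.00774). LiCl replicate 4 was the highest, and its other probe set, near the bottom of the scale at 2.97, did not differ (-0.02). The suffixes of these 3 probe sets mark sequence shared with other transcripts, so related MHC genes may add to their signal.

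Ciita encodes the coactivator that switches on class II genes. It lay at 5.80, 6.02, 5.95, 5.75 and 5.76 with LiCl and at 5.48, 5.41, 5.37, 5.31 and 5.59 with chow vehicle, and all LiCl arrays were higher. Its change was 0.42 ± 0.09 (adjusted p = 0.00526) and 0.35 after quantile normalization, while its dimmer probe set changed by 0.25 ± 0.11 and was not called (adjusted p = 0.118). Other class II genes did not pass. RT1-Da changed by 0.26 ± 0.24 (adjusted p = 0.484), RT1-DMa by 0.08 ± 0.08 (adjusted p = 0.508) and Cd74, the invariant chain, by 0.60 ± 0.32 (adjusted p = 0.211), with SDs of up to 0.71 over the LiCl arrays. RT1-DMb missed the threshold as deposited (0.24 ± 0.08, adjusted p = 0.0541) and passed it after quantile normalization (0.32, adjusted p = 0.0274). Of 2 probe sets of RT1-Bb, 1 was called higher on the deposited values alone (0.32).

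The promoters of class II genes carry a conserved set of short boxes to which the factors that recruit Ciita bind, and they are shown here because members that were called and members that were not can then be read side by side. The 130 bases before the annotated start of 4 class II genes are given 5′ to 3′ from RefSeq (build GRCr8), with the letters TGATTGG, the core of the Y box, in capitals. RT1-Ba lies at chr20:4576927-4577056 on the plus strand, RT1-Db1 at chr20:4560163-4560292 on the minus strand, RT1-Da at chr20:4515285-4515414 on the plus strand and RT1-Bb at chr20:4604119-4604248 on the minus strand.
RT1-Ba: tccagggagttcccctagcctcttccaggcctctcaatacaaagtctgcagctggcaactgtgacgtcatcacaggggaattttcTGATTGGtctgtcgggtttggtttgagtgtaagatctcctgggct
RT1-Db1: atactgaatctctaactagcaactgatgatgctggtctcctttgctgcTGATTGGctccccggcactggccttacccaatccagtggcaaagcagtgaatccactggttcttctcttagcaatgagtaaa
RT1-Da: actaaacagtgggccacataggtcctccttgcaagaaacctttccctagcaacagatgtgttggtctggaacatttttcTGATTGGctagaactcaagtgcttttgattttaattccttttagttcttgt
RT1-Bb: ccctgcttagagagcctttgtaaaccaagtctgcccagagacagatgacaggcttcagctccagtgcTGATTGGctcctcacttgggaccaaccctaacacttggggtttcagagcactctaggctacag
All 4 promoters hold TGATTGG, beginning 45, 82, 51 and 63 bases before the start in the order printed. Searched on both strands of the 250 bases before the start, these letters occur in 6.42% of 33469 promoters. The letters TAGCAAC occur before RT1-Db1 and RT1-Da and in 2.88% of promoters, and the cAMP response element TGACGTCA occurs before RT1-Ba and in 1.59%. TGATTGG was thus present both in genes that were called and in RT1-Da, which was not. TAGCAAC was found before RT1-Da and the called gene RT1-Db1 but not before the called gene RT1-Ba.

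The gene lists were chosen with earlier results of these data known, so their shares are descriptive. Over the list of 22 measured antigen presentation genes, 4 rose and 0 fell on the deposited values, where 4.4% of all genes were called higher. The same 4 passed on both scales, where 1.63% of all genes were called higher, and they are RT1-Ba, RT1-Db1, RT1-CE12 and Ciita. The median change of the list was 0.17 on both scales, beside -0.03 over all genes as deposited and 0.01 after quantile normalization. Whether more cells with these RNAs or more RNA per cell underlies such a difference cannot be told apart in whole tissue. The mean level of the microglial markers was 7.52 ± 0.14 (7.39 to 7.72) with LiCl and 7.42 ± 0.08 (7.34 to 7.54) with chow vehicle, and that of blood and leukocyte genes was 5.58 ± 0.06 and 5.52 ± 0.06, so both overlapped between the groups. Their part in the MHC result was not tested.

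Csf1 and Cxcr5 were also among the largest rises. Csf1, the growth factor that microglia depend on, lay at 8.57, 8.53, 8.70, 8.63 and 8.88 with LiCl and between 8.11 and 8.26 with chow vehicle. All LiCl arrays were higher, by 0.47 ± 0.09 on average (adjusted p = 0.0037), and 2 of the other 3 Csf1 probe sets were called higher as well. The chemokine receptor gene Cxcr5 rose by 0.57 ± 0.10 (adjusted p = 0.00329), although a second probe set was not called. In lamotrigine replicates 1 and 5, which had no LiCl, Csf1 lay at 8.77 and 8.74 and Cxcr5 at 8.88 and 8.74. In the other lamotrigine arrays Csf1 lay between 8.29 and 8.38 and Cxcr5 between 8.19 and 8.42. Of 33 measured genes of cytokines, chemokines and NF-kB, 5 rose and 1 fell as deposited, where 4.4% and 10.1% of all genes did so. On both scales 3 passed, all higher, where 1.63% of all genes rose: Csf1, Nos2, the inducible nitric oxide synthase (0.40 ± 0.09, adjusted p = 0.00923), and Rela, the p65 subunit of NF-kB (0.31 ± 0.06, adjusted p = 0.00592). Ctss, a cathepsin of microglia that processes antigen, rose by 0.28 ± 0.08 (adjusted p = 0.0282) and was the 1 of 21 microglial markers to pass on both scales. Of 31 interferon response genes, 5 were called higher on the deposited values, where 4.4% of all genes were, among them Ifit1 (0.61 ± 0.17, adjusted p = 0.0229) and Usp18 (0.38 ± 0.12, adjusted p = 0.0354), and after quantile normalization limma called 0 and 10 had an unadjusted p under 0.05. Ifit1 then stood at an adjusted p of 0.0674 and Usp18 at 0.0993.

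The largest rise belonged to Nr4a3, an orphan nuclear receptor that is induced by neuronal activity, but it depended on the probe set. Its dimmest probe set lay at 7.07, 7.20, 7.10, 6.82 and 6.71 with LiCl and at 5.75, 5.95, 5.97, 6.04 and 6.42 with chow vehicle. It was thus higher in every LiCl array, by 0.95 ± 0.14 (adjusted p = 0.00152), a 1.94-fold difference. The 2 brighter Nr4a3 probe sets went the other way, by -0.37 ± 0.15 (adjusted p = 0.0943) and -0.40 ± 0.11 (adjusted p = 0.0191, and 0.122 after quantile normalization). No direction for the gene as a whole follows from these values.

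Txnip, which inhibits thioredoxin and glucose uptake, lay at 8.78, 8.89, 8.57, 8.53 and 8.79 with LiCl and at 7.76, 8.29, 7.80, 7.91 and 8.39 with chow vehicle. Its change was 0.68 ± 0.14 (adjusted p = 0.00549), but the injection vehicle arrays lay at 8.57, close to the LiCl mean of 8.71. Scd2, a stearoyl-CoA desaturase that makes monounsaturated fatty acids, rose by 0.64 ± 0.13 in a dim probe set (adjusted p = 0.00486) and by 0.27 ± 0.07 in its brightest, which lay at 13.22 with LiCl (adjusted p = 0.0173). Its other 2 probe sets changed by 0.07 ± 0.10 (adjusted p = 0.675) and 0.22 ± 0.10 (adjusted p = 0.127) and were not called. Rpia, ribose 5-phosphate isomerase of the pentose phosphate pathway, lay between 7.78 and 8.17 with LiCl and between 7.33 and 7.51 with chow vehicle, a change of 0.51 ± 0.08 (adjusted p = 0.00241). It lay at 8.02 and 8.17 in lamotrigine replicates 1 and 5 and between 7.69 and 7.89 in the other lamotrigine arrays. Depp1, a target of FoxO factors, rose by 0.55 ± 0.11 (adjusted p = 0.00592), again with an injection vehicle mean of 6.64 that lay near the LiCl mean of 6.77. The remaining large rises were Padi2, a peptidylarginine deiminase (0.52 ± 0.09, adjusted p = 0.00279), Slf2, which localizes the SMC5/6 complex (0.46 ± 0.07, adjusted p = 0.00213), Lrrc4b, a postsynaptic adhesion protein (0.56 ± 0.09, adjusted p = 0.00209), Bex3 (0.45 ± 0.15, adjusted p = 0.0422) and C13h1orf115 (0.47 ± 0.12, adjusted p = 0.0178). A second Lrrc4b probe set was called lower. In lamotrigine replicates 1 and 5 the Lrrc4b probe set that rose lay at 6.88 and 6.67, and between 6.31 and 6.48 in the other lamotrigine arrays. Bex3 lay at 9.31 and 8.93 in these replicates and between 8.32 and 8.96 in the others.

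**Figure D3:**
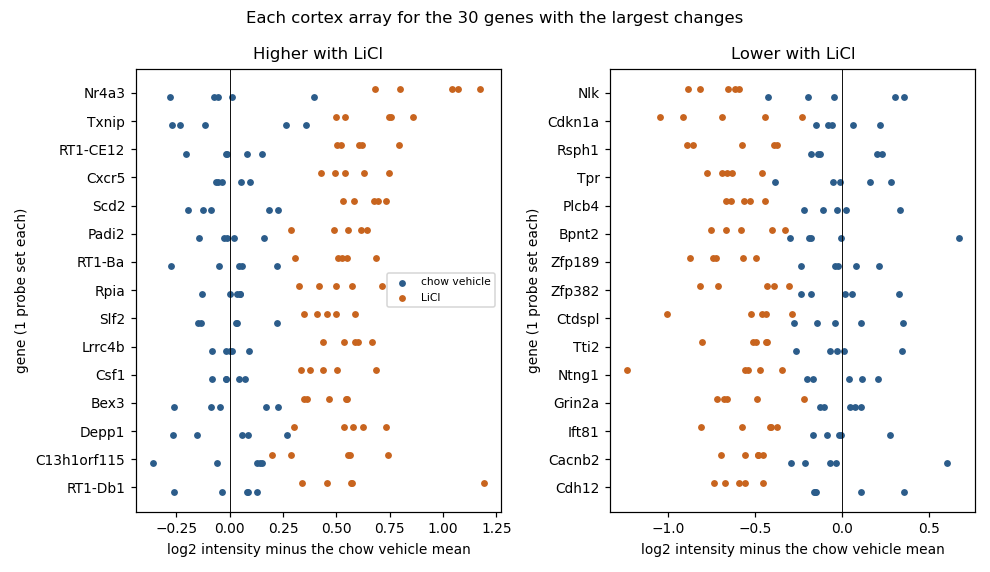
Level of each LiCl and chow vehicle array of the cortex, as log2 intensity minus the chow vehicle mean of the probe set (horizontal axis), for the 15 genes with the largest rises and the 15 with the largest falls. For every gene the 5 LiCl arrays lie on one side of the 5 chow vehicle arrays, which the choice of these genes required.

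The falls included genes of the pathways on which lithium is known to act. Nlk, a kinase that modifies the Wnt factors TCF and LEF, lay at 5.15, 5.38, 5.42, 5.44 and 5.22 with LiCl and at 5.84, 6.39, 5.99, 6.34 and 5.61 with chow vehicle. Its change was -0.71 ± 0.15 (adjusted p = 0.00594), and the other 4 Nlk probe sets were not called. Plcb4, a phospholipase C that cleaves phosphoinositides, lay between 5.44 and 5.66 with LiCl and between 5.89 and 6.44 with chow vehicle, a change of -0.57 ± 0.11 (adjusted p = 0.00368). Its other probe set was called lower too. The injection vehicle mean of the first was 5.63, within the LiCl range, and LiCl minus injection vehicle was -0.09 ± 0.11 (adjusted p = 0.543). Bpnt2, a Golgi phosphatase of the lithium-inhibited family that clears phosphoadenosine phosphate, lay at 5.06, 4.81, 4.64, 4.99 and 4.72 with LiCl and at 5.21, 5.21, 5.09, 6.07 and 5.39 with chow vehicle. The groups were separated by a small gap, and the change was -0.55 ± 0.16 (adjusted p = 0.0274). The injection vehicle mean was 6.51, further from the chow vehicle mean of 5.39 than the LiCl mean of 4.85 was. Of the other 3 Bpnt2 probe sets, that at 8.81 was called lower as deposited (-0.23 ± 0.07, adjusted p = 0.0433), and the brightest, at 10.93, changed by 0.02 ± 0.05 and was not called.

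Of the other measured enzymes that lithium inhibits, Impa1, Impa2, Bpnt1, Gsk3a and Gsk3b had no called change in their RNA. Impa1, the main inositol monophosphatase, lay at 9.17 ± 0.14 with LiCl and 9.25 ± 0.03 with chow vehicle (change -0.08 ± 0.06, adjusted p = 0.422). Impa2 changed by -0.07 ± 0.16 (adjusted p = 0.798) and Bpnt1 by -0.05 ± 0.06 (adjusted p = 0.578). Gsk3a changed by 0.01 ± 0.06 (adjusted p = 0.892) and Gsk3b by -0.23 ± 0.09 (adjusted p = 0.0853). The Wnt targets and effectors Axin2 (-0.10 ± 0.15) and Ctnnb1 (-0.01 ± 0.05) were not called either. Over the 30 measured genes of GSK3, Akt and Wnt signalling, 2 fell as deposited and 1 on both scales, Tle1, a Wnt corepressor (-0.37 ± 0.10, adjusted p = 0.0205). These shares of 6.67% and 3.33% compare with 14.5% and 3.37% of all genes called in either direction.

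Slc2a13, a proton-coupled carrier of myo-inositol in neurons, lay at 10.50, 10.53, 10.62, 10.67 and 10.59 with LiCl and at 10.89, 10.83, 10.89, 10.88 and 10.81 with chow vehicle. All LiCl arrays were lower, by 0.28 ± 0.06 on average (adjusted p = 0.00461). Slc2a13 was the 1 of 14 genes of inositol recycling and transport to pass on both scales, where 3.37% of all genes did. As deposited 2 of the 14 fell and 0 rose, a share of 14.3% beside 14.5% of all genes called in either direction. The sodium-coupled carrier gene Slc5a3 changed by -0.24 ± 0.14 (adjusted p = 0.235). Among 30 phosphoinositide kinases and phospholipases and their partners, 8 fell and 1 rose as deposited, where 10.1% and 4.4% of all genes did so, and 3 fell and 1 rose on both scales, where 1.74% and 1.63% did. Dgkb, a diacylglycerol kinase, fell by 0.45 ± 0.08 (adjusted p = 0.00279), Itpka, the kinase of inositol trisphosphate, by 0.30 ± 0.06 (adjusted p = 0.00423) and Pik3c3, a phosphatidylinositol 3-kinase, by 0.38 ± 0.09 (adjusted p = 0.00957). Itpr2, a receptor for inositol trisphosphate, rose by 0.36 ± 0.07 (adjusted p = 0.00555). For all 4 genes the LiCl and chow vehicle arrays did not overlap, as was the case for 11.8% of all probe sets. These genes were taken because they were called on both scales. Of the 1106 probe sets so called, 790 had groups apart on both scales, so the separation adds no support.

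Genes of neuronal excitability and contact were mostly lower. The 9 neuronal lists (receptors, channels, synaptic vesicles, adhesion, and projection neuron and interneuron markers) all had medians below 0 on both scales. Of their 241 genes, 52 fell (21.6%, beside 10.1% of all genes) and 4 rose as deposited, and 17 fell and 2 rose on both scales. The 17 falls are 7.05% of the genes, where 1.74% of all genes fell on both scales. These lists too were chosen with earlier results of these data known, so the shares describe the genes and test nothing. The median change of the 241 genes was -0.12 as deposited and -0.07 after quantile normalization. The median level of most of these lists lay above 8, the range in which calls on the deposited values were mostly lower.

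Among glutamate receptors and their scaffold, Grin2a, the GluN2A subunit of the NMDA receptor, lay at 8.86, 8.99, 9.05, 9.28 and 8.89 with LiCl and at 9.46, 9.36, 9.49, 9.26 and 9.27 with chow vehicle in its brightest probe set. LiCl replicate 4 reached into the chow vehicle range. The change was -0.35 ± 0.07 (adjusted p = 0.00549), a second probe set fell by 0.55 ± 0.15 with no overlap (adjusted p = 0.0233), and the third changed by 0.03. Grin2b, the GluN2B subunit, was lower as deposited (-0.42 ± 0.09, adjusted p = 0.00735) and missed the threshold after quantile normalization (adjusted p = 0.0513). Homer1, a scaffold of metabotropic receptors with a short activity-induced form, was called lower in 4 of 5 probe sets as deposited and in 3 on both scales. Those 3 changed by -0.51 ± 0.12, -0.46 ± 0.07 and -0.88 ± 0.20, and the probe set that was not called changed by -0.11 ± 0.13. Grm8, a metabotropic receptor, rose by 0.30 ± 0.09 (adjusted p = 0.0299).

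Of 12 genes of GABA receptors and their postsynaptic site, 5 fell and 1 rose as deposited, where 10.1% of all genes fell and 4.4% rose. On both scales, where 1.74% fell, the receptor subunits Gabra3 (-0.35 ± 0.10, adjusted p = 0.0261) and Gabrb2 (-0.25 ± 0.05, adjusted p = 0.00475) fell, and Nlgn2, an adhesion protein of inhibitory synapses, rose (0.39 ± 0.11, adjusted p = 0.0251). Among the ion channels, 9 of 31 potassium channel genes fell as deposited (29%, beside 10.1% of all genes) and 2 on both scales (6.45%, beside 1.74%). Kcnj6, an inward rectifier, lay between 9.25 and 9.34 with LiCl and between 9.62 and 9.80 with chow vehicle (-0.41 ± 0.06, adjusted p = 0.000921), although another of its 4 probe sets was called higher. Kcnd2, the channel of A-type currents, fell by 0.35 ± 0.06 (adjusted p = 0.00322). The calcium channel subunits Cacna2d1 (-0.33 ± 0.07, adjusted p = 0.00559) and Cacnb2 (-0.54 ± 0.13, adjusted p = 0.0118) fell as well.

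Adhesion and axon guidance was the list with the most falls on both scales, 6 of 41 genes with 0 rises, where 1.74% of all genes fell. It was also the largest of the neuronal lists. Epha7, an ephrin receptor, lay at 6.76, 6.83, 6.60, 6.66 and 6.74 with LiCl and at 7.03, 7.45, 7.17, 7.54 and 7.29 with chow vehicle, so that the groups did not overlap (-0.58 ± 0.13, adjusted p = 0.0086). Ntng1, a netrin anchored to axons, fell by 0.63 ± 0.16 (adjusted p = 0.0155), with LiCl replicate 3 the lowest at 5.91. Cntnap2, which clusters potassium channels along axons, fell by 0.31 ± 0.06 in its brightest probe set (adjusted p = 0.00354) and by 0.64 ± 0.13 in another (adjusted p = 0.00558). The other members that fell were Ncam2 (-0.37), Pcdh20 (-0.34) and L1cam (-0.29), and the cadherin gene Cdh12, which is among the largest falls, fell by 0.60 ± 0.13 (adjusted p = 0.00712). Lingo2, a further surface protein of neurons that was picked out after its values were seen, fell in both of its probe sets, by 0.59 ± 0.07 and 0.39 ± 0.07.

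Few markers of neuron classes were called on both scales. Of 25 projection neuron markers, 5 fell as deposited (beside 10.1% of all genes) and 2 on both scales (beside 1.74%). Their median was -0.12 and, after quantile normalization, -0.02, with 10 genes then higher. Of 20 interneuron markers, 3 fell and 1 rose as deposited and 1 fell on both scales, with medians of -0.09 and -0.06. Cux2, a transcription factor of upper-layer projection neurons, lay at 8.33, 8.28, 8.73, 8.61 and 8.11 with LiCl and at 8.96, 8.95, 8.95, 8.96 and 9.005 with chow vehicle. All LiCl arrays were lower, with a change of -0.55 ± 0.13 (adjusted p = 0.0111). The injection vehicle arrays, at 8.59 ± 0.32, and the lamotrigine arrays, at 8.51 ± 0.22, lay close to the LiCl mean of 8.42, and Cux2 was not called for LiCl against injection vehicle (-0.18 ± 0.13, adjusted p = 0.338). Mef2c fell by 0.24 ± 0.06 (adjusted p = 0.011), and Calb1, calbindin, by 0.40 ± 0.09 (adjusted p = 0.00805). Chrm4, a muscarinic receptor gene, fell by 0.45 ± 0.09 (adjusted p = 0.00461). Rgs9 was the 1 of 16 striatal markers to pass, where 1.63% of all genes rose on both scales, and it rose (0.32 ± 0.08, adjusted p = 0.0161). Astrocyte and oligodendrocyte markers had 0 calls of 22 genes each in limma on either scale, with medians of 0.09 and 0.07 as deposited. At an unadjusted p under 0.05 there were 3 astrocyte and 0 oligodendrocyte genes as deposited and 8 and 0 after quantile normalization. The astrocyte marker mean was 11.09 ± 0.09 with LiCl and 11.04 ± 0.07 with chow vehicle.

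Activity-regulated genes were mostly lower. The median of 23 immediate early genes was -0.15 as deposited and -0.16 after quantile normalization, with 16 and 15 of them lower. For 24 activity-regulated synaptic and secreted factors the median was -0.12 on both scales. Of these, 6 were called lower as deposited, beside 10.1% of all genes, and 2 on both scales, beside 1.74%. Bdnf, the neurotrophin, lay at 7.95, 8.11, 8.27, 8.52 and 8.51 with LiCl and at 8.61, 8.87, 8.89, 8.63 and 8.70 with chow vehicle, a change of -0.47 ± 0.10 (adjusted p = 0.00775). The groups did not overlap as deposited, and the adjusted p after quantile normalization was 0.0496. The injection vehicle mean of 8.36 lay within the LiCl range, and LiCl minus injection vehicle was -0.08 ± 0.10 (adjusted p = 0.585). The second Bdnf probe set changed by -0.06 ± 0.08 and was not called. Nrn1, neuritin, a surface protein induced by activity, fell by 0.28 ± 0.05 (adjusted p = 0.00442). Fosb fell by 0.53 ± 0.14 (adjusted p = 0.0209) and Cebpb by 0.52 ± 0.10 (adjusted p = 0.00447), while Ccn1 rose by 0.47 ± 0.08 from a low level (adjusted p = 0.00261). Those 3 were the calls on both scales among 23 immediate early genes, where 3.37% of all genes were called in either direction. The best-known members were not called: Fos -0.32 ± 0.22 (adjusted p = 0.327), Egr1 0.01 ± 0.11 (adjusted p = 0.963) and Junb -0.38 ± 0.16 (adjusted p = 0.115). Arc, a synaptic activity gene, changed by 0.02 ± 0.25 (adjusted p = 0.961). Creb1, the transcription factor upstream of several of these genes, fell by 0.39 ± 0.10 (adjusted p = 0.0159), with chow vehicle replicate 5 at 6.63 and thus within the LiCl range.

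The calcium sensor gene Hpca (hippocalcin, -0.28 ± 0.05, adjusted p = 0.00329) and Ppp3ca, the catalytic subunit of calcineurin (-0.17 ± 0.05, adjusted p = 0.0308), were the falls on both scales among 22 calcium signalling genes. Of all genes, 1.74% fell on both scales, a share that also stands beside the next count. Stmn3, a protein that destabilizes microtubules, fell by 0.15 ± 0.04 (adjusted p = 0.0221), the 1 of 26 GSK3 substrates and microtubule proteins to fall on both scales, and Map1b changed by -0.10 ± 0.04 (adjusted p = 0.0839). In growth control, Cdkn1a, the cell cycle inhibitor p21, fell by 0.67 ± 0.16 in a dim probe set (adjusted p = 0.0106), but its bright probe set changed by -0.11 ± 0.10 and was not called (adjusted p = 0.464). Cdkn2c, another cell cycle inhibitor, rose in its brighter probe set (0.29) and fell in the other (-0.43).

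The remaining large falls share no single role. Tpr, a component of the nuclear pore basket, was called lower in all 3 of its probe sets as deposited (-0.65, -0.46 and -0.27) and in 2 after quantile normalization. The zinc finger genes Zfp189 (-0.68 ± 0.10, adjusted p = 0.000994) and Zfp382 (-0.53 ± 0.12, adjusted p = 0.00907) fell. Rsph1, a radial spoke protein of motile cilia, fell by 0.62 ± 0.14 (adjusted p = 0.00806), and Ift81, which carries tubulin into cilia, by 0.52 ± 0.10 (adjusted p = 0.00527). Ctdspl, a phosphatase, and Tti2, a cochaperone of large kinases, changed by -0.54 ± 0.14 (adjusted p = 0.0158) and -0.53 ± 0.16 (adjusted p = 0.0305), while 4 other Ctdspl probe sets and 2 other Tti2 probe sets were not called. Grin2a is also in this set through its dim probe set.

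Over the 2 scales, 28 genes had at least 2 probe sets called, and 5 of these had calls in both directions, Cdkn2c, Cyth1, Ifnar1, Kcnj6 and Mllt1. Beside those already described, this group held Tafa2, a secreted neurokine (3 of 3 probe sets lower as deposited, 2 on both scales), Zfp655 (3 of 3 lower on both scales, by 0.33 to 0.50) and Klf2, a transcription factor of vessels and lymphocytes (2 of 5 higher, by 0.32 and 0.63). These genes were picked out after their values were seen.

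Lipid and stress genes gave few calls that held on both scales. Lcat, which esterifies cholesterol on lipoproteins, lay at 8.13, 7.98, 8.05, 8.53 and 7.71 with LiCl and at 8.70, 8.75, 8.92, 8.58 and 9.21 with chow vehicle, with no overlap and a change of -0.75 ± 0.15 (adjusted p = 0.00446). Asns, the asparagine synthetase, fell by 0.41 ± 0.07 (adjusted p = 0.0033) and was the 1 of 38 genes of the ATF4 and unfolded protein response to pass on both scales, where 3.37% of all genes did. Sqstm1, the autophagy receptor p62, fell by 0.23 ± 0.05 (adjusted p = 0.00844), and the nuclear receptor Rora, of the circadian clock, by 0.50 ± 0.10 (adjusted p = 0.00466). Acvr1c, a receptor of the activin family, fell by 0.66 ± 0.15 (adjusted p = 0.00923). Abca1, the cholesterol exporter, was lower by 0.91 ± 0.24 as deposited (adjusted p = 0.0201) with wide scatter, from 7.04 to 8.34 with LiCl and from 7.45 to 8.95 with chow vehicle, and was not called after quantile normalization (adjusted p = 0.0583). Ptgs2, cyclooxygenase 2, the inducible enzyme of prostaglandin synthesis, lay between 7.93 and 8.71 with LiCl and between 8.97 and 9.35 with chow vehicle (-0.76 ± 0.19, adjusted p = 0.0134, and 0.054 after quantile normalization). Htr2a, the serotonin 2A receptor gene, likewise changed by -0.60 ± 0.17 (adjusted p = 0.0242, and 0.0642).

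Some lists were called on the deposited values and hardly at all after quantile normalization. Of 34 proteasome subunits 12 fell as deposited (35.3%, beside 10.1% of all genes), and only Psmd12 did on both scales (-0.34 ± 0.06, adjusted p = 0.00225), where 1.74% of all genes fell. Against injection vehicle Psmd12 was higher with LiCl (0.27 ± 0.06, adjusted p = 0.00103). Their median went from -0.15 to -0.07. Of 25 cytosolic heat shock proteins 5 fell and 1 rose as deposited, and after quantile normalization limma called 0, with 5 at an unadjusted p under 0.05. Medians of 31 of the 49 lists lay below 0 as deposited and of 22 after quantile normalization, and 9 changed sign.

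**Figure D4:**
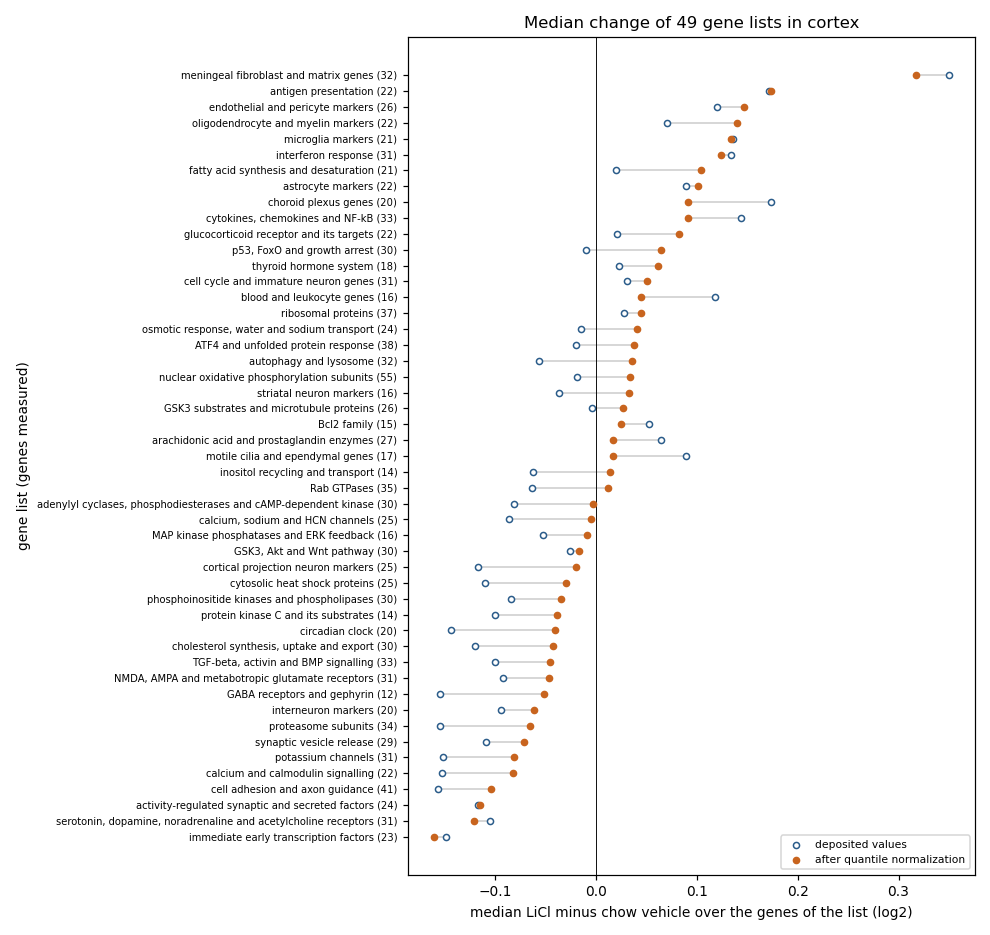
Median change with LiCl (horizontal axis, log2) of 49 gene lists in cortex, with open circles for deposited values and filled circles after quantile normalization, and the number of genes measured in brackets. Lists of neuronal genes lie below 0 on both scales, and the 7 glial and immune lists lie above 0 on both.

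Marker genes of choroid plexus and meninges were compared as well. The mean of 20 choroid plexus genes was 5.52 ± 0.08 (5.43 to 5.63) with LiCl and 5.29 ± 0.06 (5.22 to 5.38) with chow vehicle, without overlap. Ttr, the transthyretin of the choroid plexus, lay at 7.15, 10.47, 8.37, 8.26 and 6.69 with LiCl and at 5.98, 6.68, 6.76, 6.25 and 6.69 with chow vehicle. Aqp1 (0.34 ± 0.08, adjusted p = 0.0143) and Prlr (0.44 ± 0.10, adjusted p = 0.00756) of that list rose on both scales, where 1.63% of all genes rose, and the other 18 genes were not called. The median change of the 20 genes was 0.17 as deposited and 0.09 after quantile normalization, beside 0.11 as deposited for all probe sets above 4 and up to 6. The mean of 32 meningeal and matrix genes was 6.91 ± 0.34 (6.49 to 7.31) and 6.64 ± 0.23 (6.41 to 6.92), and their median change was 0.35. Slc6a13, a GABA carrier of meninges, rose by 0.57 ± 0.13 (adjusted p = 0.0106), Anpep of pericytes by 0.40 ± 0.10 (adjusted p = 0.0139), and Dpt, a matrix protein, fell by 0.74 ± 0.23 (adjusted p = 0.0371). With the meningeal mean as a covariate, an alternative chosen after the data were seen, 4301 probe sets were called and all 30 genes with the largest changes were still called. The part of choroid plexus tissue in these results was not tested.

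The same 30 probe sets were then examined in the hippocampus and the striatum, each with 5 LiCl and 5 chow vehicle arrays, which the choice of the genes did not use. On the deposited values 73 probe sets were called for LiCl in the hippocampus (0.235%) and 0 in the striatum (limma, where 3828 had an unadjusted p under 0.05), and after quantile normalization 26 and 0. Of the 30 genes, 10 had the same sign in the hippocampus as in the cortex and 13 in the striatum. Nr4a3, in the probe set that rose in the cortex, stood at 0.59 ± 0.13 in the hippocampus (adjusted p = 0.0654) and 0.61 ± 0.11 in the striatum (adjusted p = 0.119). Txnip stood at 0.20 ± 0.13 and 0.21 ± 0.13, and Depp1 at 0.22 ± 0.12 and 0.12 ± 0.11. RT1-CE12 was lower with LiCl in the hippocampus (-0.39 ± 0.06, adjusted p = 0.014) and stood at -0.17 ± 0.10 in the striatum (adjusted p = 0.477), and RT1-Ba stood at -0.28 ± 0.08 and -0.20 ± 0.09 (adjusted p = 0.119 and 0.386). RT1-Db1 stood at 0.08 ± 0.14 and -0.63 ± 0.42, and neither was called. Rpia was also lower in the hippocampus (-0.33 ± 0.07, adjusted p = 0.0477). In all, 9 of the 15 genes that rose in the cortex had negative changes in both other regions.

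**Figure D5:**
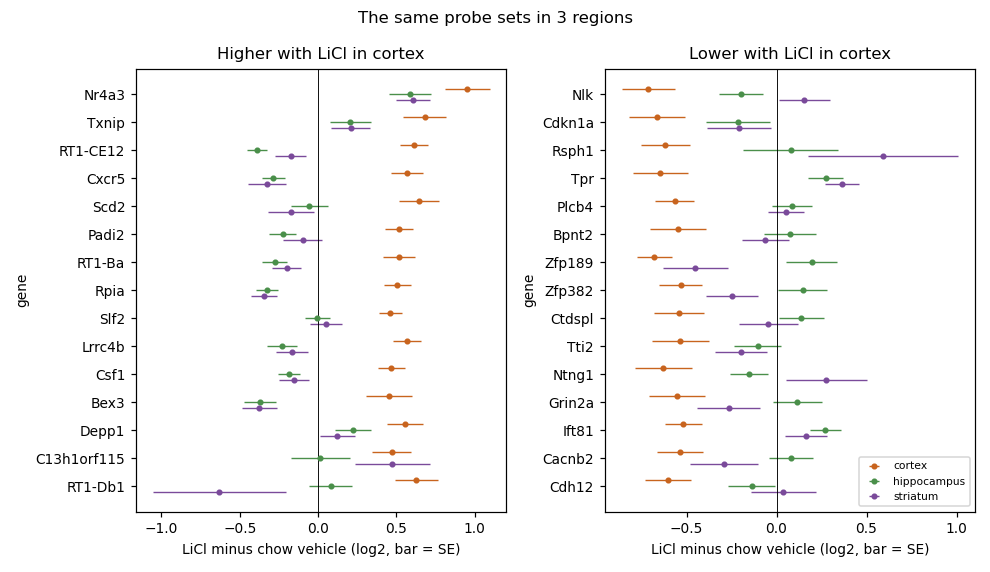
Change with LiCl (horizontal axis, log2, bars are SE) in cortex, hippocampus and striatum for the 30 probe sets with the largest changes in cortex. RT1-CE12, Cxcr5, RT1-Ba, Rpia and Bex3 lie on opposite sides of 0 in the cortex and in the other regions, and Nr4a3 lies above 0 in all 3.

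The difference of the LiCl effect between regions was tested in a fit of all 60 arrays with the animal as a random block. Between cortex and hippocampus 6034 probe sets were called (19.4%), and between cortex and striatum 3696 (11.9%). Of the 30 genes, 19 differed from the hippocampus and 19 from the striatum, a count raised by their choice for large cortex changes. After quantile normalization within regions the counts over all probe sets were 2473 (7.97%) and 1548 (4.99%), and 21 and 17 of the 30 genes. RT1-CE12 differed by 1.01 ± 0.12 from the hippocampus (adjusted p = 2.67e-07) and by 0.79 from the striatum (adjusted p = 2.34e-05), and Rpia by 0.84 and 0.85 (adjusted p = 9.74e-07 and 6.37e-07). Tpr, lower in the cortex and at 0.27 ± 0.10 and 0.37 ± 0.09 in the other regions, differed by -0.91 and -1.01. Nr4a3 did not differ at the threshold (0.34 ± 0.17, adjusted p = 0.161, and 0.35 ± 0.17, adjusted p = 0.174). The spread of the LiCl arrays against the chow vehicle arrays, which was narrower in the cortex, was wider in the hippocampus (3.59 ± 0.03 against 3.48 ± 0.06) and the striatum (3.53 ± 0.07 against 3.45 ± 0.05), and its part in the opposite signs was not tested.

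Against the injection vehicle arrays of the cortex, which received no LiCl but another route of delivery, 7244 probe sets were called (23.3%), with the LiCl arrays shared between both comparisons. For the alternatives 94 probe sets were followed. They were the 30 with the largest changes, the list members called on both scales and some further members, and not all are named here. Of these 94, 34 were not called against injection vehicle, 58 were called in the same direction and 2 changed sign. Among the 34 were Txnip, Depp1, Padi2, Slf2, RT1-Db1, Plcb4, Itpka, Itpr2, Tle1, Kcnj6, Gabrb2, Mef2c, Calb1, Fosb, Grm8, Ctss, Nos2, Ptgs2, Aqp1 and Slc6a13. Lcat was a further one, with an injection vehicle mean of 8.24 between 8.08 with LiCl and 8.83 with chow vehicle.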

How the data were processed

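The deposited values are linear intensities per array, made by the authors with RMA under R 2.7.2 per the submitters' processing notes. Log2 was taken with no pseudocount. The sources used here do not give whether RMA was run on all arrays at once. RMA equalizes arrays, yet the spread of the deposited cortex values still differed between groups. Such differences in spread can shift dim and bright probe sets in opposite directions. The 57 control probe sets were left out. Symbols are those of the platform annotation, parts of which may be outdated (436 probe sets with several symbols and 9780 without were not named).

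Groups were taken from the labels. The 20 cortex arrays were fitted with limma 3.58.1 (R 4.3.3; lmFit, eBayes with an intensity trend), 1 mean per group, Benjamini-Hochberg over 31042 probe sets, two-sided. Region differences were fitted over 60 arrays with a random block for the animal (consensus correlation 0.133). The fit was tested on simulated data with known changes.

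Named genes had 1 symbol, were called as deposited and after quantile normalization and had groups apart on both scales; of these the 15 largest rises and falls after quantile normalization were taken, 1 probe set per gene. List members are described by their brightest probe set, those called and those a list is known by. The members and lists were chosen with earlier results of these data known. The number of arrays limits the precision. Alternatives were other normalizations, covariates, filters, weights, controls and left-out arrays.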

Additional observations from a re-analysis of the deposited data

Results flagged for a closer look

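Of 188 tests of 1 probe set in 1 group of 5 cortex arrays, 10 showed an array far from the other 4 by Dixon's ratio, and chance gives about 1 in 20. Rpia in chow vehicle replicate 2 lay at 7.33, with the other 4 arrays between 7.46 and 7.51. RT1-Db1 in LiCl replicate 4 lay at 5.98, with the other 4 arrays between 5.12 and 5.36. Tti2 in LiCl replicate 5 lay at 5.05, with the other 4 arrays between 5.35 and 5.42. Ntng1 in LiCl replicate 3 lay at 5.91, with the other 4 arrays between 6.59 and 6.80. Ccn1 in chow vehicle replicate 1 lay at 3.49, with the other 4 arrays between 3.61 and 3.63. Cacna2d1 in chow vehicle replicate 3 lay at 10.58, with the other 4 arrays between 10.73 and 10.78. Cux2 in chow vehicle replicate 5 lay at 9.005, with the other 4 arrays between 8.95 and 8.96. Anpep in chow vehicle replicate 5 lay at 5.60, with the other 4 arrays between 5.32 and 5.39. Slc6a13 in chow vehicle replicate 5 lay at 5.82, with the other 4 arrays between 5.69 and 5.71. RT1-Ba in chow vehicle replicate 4 lay at 7.70, with the other 4 arrays between 7.76 and 7.78.

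The LiCl effect in the cortex minus that in the hippocampus was called for 19 of the 30 genes with the largest cortex changes, in the test of the difference itself. On the log2 scale it was above 0 for RT1-CE12 1.01, Cxcr5 0.88, Scd2 0.74, Padi2 0.76, RT1-Ba 0.82, Rpia 0.84, Slf2 0.46, Lrrc4b 0.80, Csf1 0.67, Bex3 0.85. It was below 0 for Tpr -0.91, Plcb4 -0.65, Bpnt2 -0.62, Zfp189 -0.86, Zfp382 -0.67, Ctdspl -0.70, Grin2a -0.67, Ift81 -0.79, Cacnb2 -0.63. The genes had been chosen for large cortex changes, which widens these differences.

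The LiCl effect in the cortex minus that in the striatum was called for 19 of the 30 genes with the largest cortex changes, in the test of the difference itself. On the log2 scale it was above 0 for RT1-CE12 0.79, Cxcr5 0.89, Scd2 0.82, Padi2 0.62, RT1-Ba 0.72, Rpia 0.85, Slf2 0.41, Lrrc4b 0.73, Csf1 0.62, Bex3 0.83, Depp1 0.43, RT1-Db1 1.26. It was below 0 for Nlk -0.87, Rsph1 -1.21, Tpr -1.01, Plcb4 -0.62, Ntng1 -0.91, Ift81 -0.68, Cdh12 -0.64. The genes had been chosen for large cortex changes, which widens these differences.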

How the results depend on the processing

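Calls of the LiCl effect in cortex numbered 4164 as deposited (1619 higher, 2545 lower). They were 1361 after quantile normalization (713 higher, 648 lower), 1385 after cyclic loess, 1580 after quantile normalization of the LiCl and chow vehicle arrays only, and 0 with array spread added to the model (limma, 3083 at an unadjusted p under 0.05). Array weights gave 6523 calls and injection vehicle as the control 7244. Leaving out dim probe sets gave 3605 (746 higher, 2859 lower). Without 1 array the calls numbered 2094 to 3974. The count fell by more than 1.5 times without LiCl replicates 1 (2380), 3 (2538) or 5 (2094) and without chow vehicle replicates 2 (2452) or 4 (2251). Region differences after quantile normalization within regions numbered 2473 against the hippocampus and 1548 against the striatum. The other alternatives stayed within 1.5 times of the main counts.

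The replicate numbers were not taken to pair the samples, since deviations of same-numbered arrays correlated from -0.08 to 0.03 and 1 of 5 LiCl arrays correlated best with its own number. With the replicate block 4427 probe sets were called, and it changed no call among the 94 followed probe sets.

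Of those 94 probe sets, 87 were still called after quantile normalization and 85 after cyclic loess. Without 1 array 2 to 13 of them lost their call and 0 changed sign. With the spread covariate all 94 lost their call, and Csf1 (-0.019), Bex3 (-0.16) and Tle1 (0.040) changed sign. Their changes became 0.854 times as large at the median and their SEs 1.71 times, so a lost call does not give the size (35 of 94 changes were larger, Txnip among them at 1.01 ± 0.23). Others shrank, among them Cxcr5 to 0.011 ± 0.10, RT1-Ba to 0.045 ± 0.13 and, in a second probe set, 0.097 ± 0.10. Rpia shrank to 0.18 ± 0.12 and RT1-CE12 to 0.24 ± 0.12. Against injection vehicle 34 lost their call, and Stmn3 (0.028) and Psmd12 (0.27) changed sign, the second with an adjusted p of 0.00103 in limma. The cause was not tested. Probe sets near background can understate changes.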
